A study of Rattus norvegicus with 6 samples.

Results

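The subject is a group of 10 sperm ion channel and ion transporter genes in rat testis: the CatSper pore genes Catsper1, Catsper2, Catsper3 and Catsper4, the CatSper auxiliary genes Catsperb, Catsperd and Catsperg, the potassium channel gene Kcnu1, the proton channel gene Hvcn1 and the sodium-proton exchanger gene Slc9c1. They were taken by symbol from a table of 35291 genes. A row carried 9 of the 10 symbols, and the level of Catsperb was not analysed here. Whole-testis RNA was sequenced from 3 diabetic (DM) and 3 non-diabetic (ND) Sprague-Dawley rats. The DM rats had been fed a high-fat diet and given 1 intraperitoneal injection of streptozotocin (STZ), a toxin of pancreatic beta cells, and were sampled 8 weeks later. The ND rats received the citrate buffer in which STZ is dissolved, and whether they were given the same diet is not stated in the sources used here. Diabetes, diet and STZ itself therefore cannot be told apart in this comparison. The labels number the samples within each group without saying whether each was 1 rat. They are called rats here, and the p-values take each sample as 1 unit, with spread measured between samples.

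CatSper is a calcium channel of the sperm tail. Its pore is built from 4 different proteins, each from its own gene, surrounded by auxiliary subunits, and it opens as the inside of the sperm becomes alkaline. The calcium that enters drives hyperactivated motility, the strong asymmetric beating needed to reach and penetrate the egg. Kcnu1 encodes Slo3, the alkaline-sensitive potassium channel that sets the membrane voltage of sperm. Slc9c1 encodes a sperm exchanger of sodium for protons and Hvcn1 a voltage-gated proton channel, both of which can carry protons out of the cell. The cells that transcribe Hvcn1 in this tissue were not tested. The other genes are transcribed in the germ cells that become sperm, so their RNA in whole testis is read before the sperm exist. In such bulk tissue, fewer cells of a type and less RNA per cell cannot be told apart. The comparison asks whether the relative transcript level of this machinery differed between DM and ND rats.

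None of the members met the study's criterion, a log2 fold change of 1 or more in either direction and p below 0.05 before adjustment, and none had an adjusted p below 0.05. Levels are FPKM, fragments scaled to transcript length and to the mapped fragments of the library, so that genes can be set beside each other. They are relative within a library, so a smaller testis with the same mix of cells would give the same values. The study reported a lower testis weight relative to body weight and markedly reduced spermatogenesis in DM rats, and these levels measure neither. Tests were made with limma after adding 0.1 FPKM and taking log2, and fold changes are on that scale. The study had screened transcripts with DESeq2, so only the cut-offs of its criterion are shared, and its own calls may differ. A filter on the mean (0.5 FPKM or above) left 20338 genes, over all of which p-values were adjusted by the Benjamini-Hochberg method. Of the 9 members with a row, 8 passed this filter. Over all genes tested, 1.24% met the criterion and 0.0344% had an adjusted p below 0.05. All 8 tested members had an absolute log2 fold change under 0.2. The median of the members was -0.06, beside -0.02 for all genes tested, with 4 members above 0 and 4 below. Catsperg, at 0.0027, was among those above, and without it the median was -0.13. The summed level of the 9 members was 500.2 ± 22.27 FPKM (SD, n = 3) in DM rats and 505.4 ± 23.39 FPKM in ND rats. Without Catsperg, the member with the highest level, the sum was 299.5 to 325.2 FPKM in DM rats and 295 to 339.9 FPKM in ND rats. Of the 8, only Catsperd passed the unadjusted threshold of 0.05, against 4.99% of all genes that did so with a lower level in DM rats. The other direction, higher in DM rats, held 2.47% of all genes and none of the members. Catsperd was also the only member whose groups did not overlap, which 8.42% of all genes did in the lower direction and 4.56% in the higher.

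**Figure D1:**
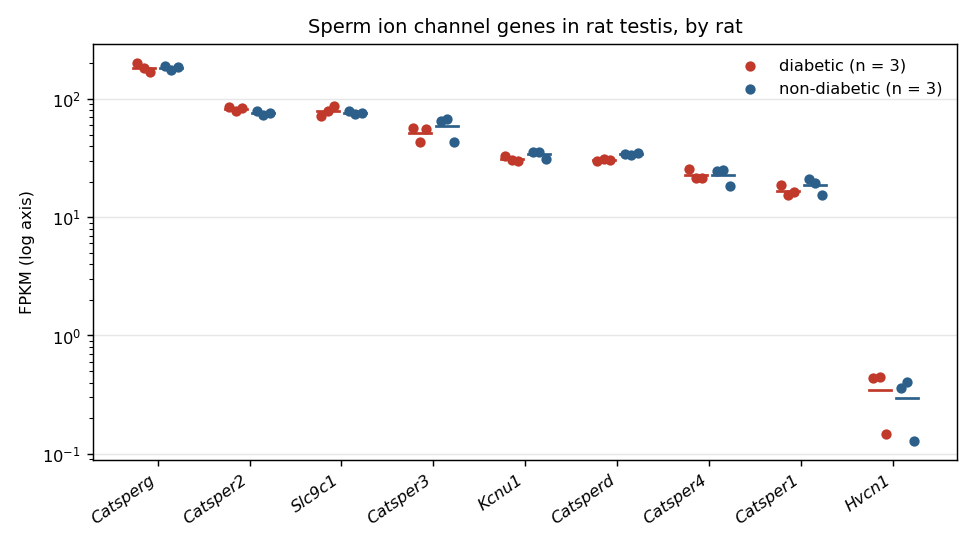
Level in FPKM (log axis) of the 9 members with a row, in order of mean level, with 1 point per rat (red, DM. Blue, ND) and a bar at each group mean. The points of the groups overlap for every member except Catsperd, and Hvcn1 lies far below the others at 0.319 FPKM on average.

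The order of the members by level was nearly fixed across rats. Catsperg led with a mean of 184 FPKM over all 6 rats, 2.31-fold above Catsper2 at 79.6 FPKM. Catsper2 and Slc9c1, at 78.1 FPKM, were not separated, since Catsper2 was the higher of the pair in only 2 of 6 rats. Catsper3 followed at 55.4 FPKM. Kcnu1 at 32.6 FPKM and Catsperd at 32.3 FPKM were likewise not separated, with Kcnu1 higher in 3 of 6 rats. Catsper4 had 22.7 FPKM and Catsper1 17.7 FPKM. The ranges of these last genes overlapped, but Catsper4 exceeded Catsper1 within each of the 6 rats, by 1.17-fold to 1.39-fold. The pore genes were thus unequal, with Catsper1 the lowest of the 4.

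Promoter sequences are shown for 3 CatSper genes on which the results below turn: Catsperd, the member whose groups separated, and Catsper3 and Catsper4, which were both at their lowest or near it in ND rat 3. They come from RefSeq (GRCr8), run 5′ to 3′ in the direction of the gene from 250 bases before to 50 bases after an annotated start, and cover chr9:1547982-1548281 (plus strand, Catsperd), chr17:8846001-8846300 (minus strand, Catsper3) and chr5:151731034-151731333 (minus strand, Catsper4). RefSeq entries were matched for 6 of the 10 members, Catsperb among them, although its level was not analysed. Capitals mark matches to 6 short motifs searched on both strands: the full cyclic AMP response element TGACGTCA, bound by the CREB and CREM family, its shorter core TGACG, which lies within it, the binding box of NF-Y (CCAAT), the TATA box (TATAAA), the core of the X box of RFX factors (GTTGCC) and the GC box (GGGCGG).
Catsperd: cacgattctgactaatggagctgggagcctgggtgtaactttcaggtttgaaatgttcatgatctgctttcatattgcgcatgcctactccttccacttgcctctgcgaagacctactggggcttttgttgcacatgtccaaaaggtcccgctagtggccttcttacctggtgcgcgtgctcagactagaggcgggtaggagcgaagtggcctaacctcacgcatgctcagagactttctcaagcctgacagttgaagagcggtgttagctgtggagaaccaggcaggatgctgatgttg
Catsper3: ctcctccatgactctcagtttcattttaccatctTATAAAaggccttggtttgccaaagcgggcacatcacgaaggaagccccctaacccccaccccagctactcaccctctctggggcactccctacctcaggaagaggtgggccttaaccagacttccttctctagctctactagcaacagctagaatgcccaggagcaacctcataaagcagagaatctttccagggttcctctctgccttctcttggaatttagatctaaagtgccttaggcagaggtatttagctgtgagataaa
Catsper4: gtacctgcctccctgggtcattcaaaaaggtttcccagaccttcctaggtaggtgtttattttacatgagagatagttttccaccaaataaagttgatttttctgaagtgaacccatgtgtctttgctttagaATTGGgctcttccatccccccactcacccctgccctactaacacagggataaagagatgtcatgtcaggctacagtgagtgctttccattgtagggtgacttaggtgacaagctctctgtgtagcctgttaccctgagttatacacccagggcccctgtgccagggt
The Catsperd window held none of the 6. The Catsper3 window held TATAAA at 216 bases before the start, a motif present in 14.2% of all 33469 promoters in the table. The Catsper4 window held CCAAT, read on the opposite strand as ATTGG, at 117 bases before the start, and 37.5% of all promoters hold CCAAT. A window at another annotated start of Catsper4 held CCAAT at 65 bases before that start. Of the 4 Catsperb windows, 1 held TATAAA at 112 and CCAAT at 16 bases before the start, and another held CCAAT at 8 bases after it. The Slc9c1 window, not printed, held CCAAT at 53 and GGGCGG at 5 bases before the start, and Catsperg held GGGCGG at 27 bases after it, a motif of 33.1% of all promoters. TGACG (21.2% of all promoters), TGACGTCA (1.83%) and GTTGCC (12.2%) were absent from the windows of all 6 matched members. A match is a description of letters and not evidence of binding.

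Catsperd encodes the delta auxiliary subunit, a single-pass membrane protein needed for the channel to be assembled in the sperm tail. Catsperd (ENSRNOG00000048818) was at 29.8, 31.0 and 30.7 FPKM in DM rats 1 to 3 and at 34.2, 33.4 and 34.8 FPKM in ND rats 1 to 3. Every DM rat lay below every ND rat. The means were 30.5 ± 0.589 FPKM (SD, n = 3) and 34.1 ± 0.731 FPKM, a difference of -10.7%. The log2 fold change was -0.16 (SE 0.06, 95% interval -0.29 to -0.03), with an unadjusted p of 0.0216 and an adjusted p of 0.59 (limma). The exact two-sided permutation test gave p = 0.1, the smallest that 3 rats against 3 allow. The spread within the groups was small, with a residual SD of 0.029 on the log2 scale, and only 0.649% of genes tested had a smaller one. Limma pools this spread with that of genes at a similar level, so its SE does not measure the spread of Catsperd alone. The unadjusted limma value stayed below 0.05 in 12 of the 16 alternative analyses. It lay above 0.05 when limma's prior variance did not follow the mean, and when DM rat 1, ND rat 1 or ND rat 3 was left out. The log2 fold change ranged from -0.18 to -0.14 across them.

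**Figure D2:**
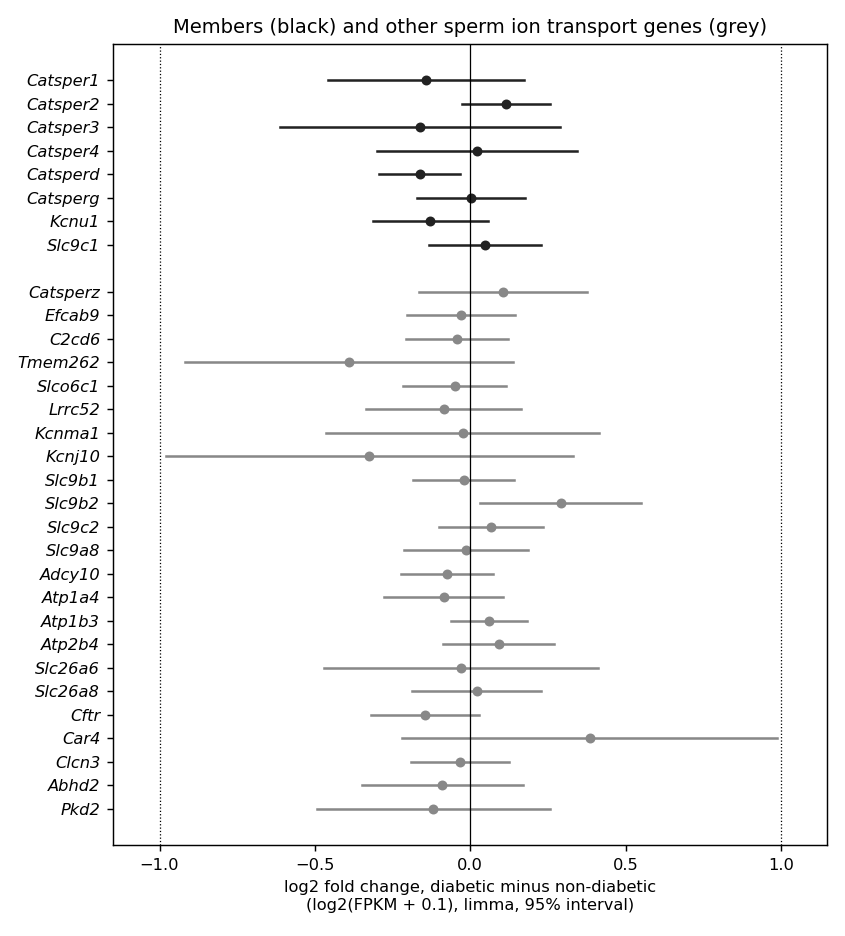
Log2 fold change (DM minus ND, log2(FPKM + 0.1)) of the 8 tested members (black) and 23 tested genes of sperm ion transport (grey), with 95% intervals from limma. Dotted lines mark a log2 fold change of -1 and 1. Only the intervals of Catsperd and Slc9b2 exclude 0, and all intervals lie between the dotted lines.

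Catsperg encodes the gamma auxiliary subunit, part of the canopy outside the pore. Catsperg (ENSRNOG00000060693) was at 202, 181 and 170 FPKM in DM rats and 188, 176 and 187 FPKM in ND rats. The DM rats included both the highest and the lowest value. The log2 fold change was 0.00 (95% interval -0.17 to 0.18, adjusted p 0.997, limma).

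None of the 4 pore genes passed a test of the difference between the groups. Catsper2 (ENSRNOG00000023064) was at 86.1, 78.6 and 83.5 FPKM in DM rats and 79.4, 73.8 and 76.0 FPKM in ND rats, and only DM rat 2 lay inside the ND range. Its log2 fold change was 0.12 (SE 0.06, 95% interval -0.03 to 0.26), with an unadjusted p of 0.0934 and an adjusted p of 0.751 (limma). Catsper1 (ENSRNOG00000056208) was at 18.6, 15.4 and 16.4 FPKM in DM rats and 21.1, 19.6 and 15.3 FPKM in ND rats. ND rats 1 and 2 had the highest values of Catsper1 and ND rat 3 the lowest. Its log2 fold change was -0.14 (95% interval -0.46 to 0.17, adjusted p 0.886, limma). Catsper3 (ENSRNOG00000011374) was at 56.7, 42.9 and 56.2 FPKM in DM rats and 65.7, 67.8 and 43.0 FPKM in ND rats, the widest spread among the tested members at 1.58-fold. Again ND rats 1 and 2 were highest, and DM rat 2 and ND rat 3 were lowest. The log2 fold change of Catsper3 was -0.16 (95% interval -0.61 to 0.29, adjusted p 0.918, limma). Catsper4 (ENSRNOG00000016312) was at 25.5, 21.4 and 21.3 FPKM in DM rats and 24.5, 24.9 and 18.3 FPKM in ND rats, with ND rat 3 again lowest. Its log2 fold change was 0.02 (95% interval -0.30 to 0.34, adjusted p 0.989, limma). The sum over the pore genes was 174 ± 14.6 FPKM in DM rats and 176 ± 20.8 FPKM in ND rats (exact two-sided permutation p = 0.9).

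DM rat 2 and ND rat 3 were low for part of the channel. Relative to each gene's mean over the 6 rats, DM rat 2 was at -0.19 for Catsper1 and -0.35 for Catsper3 on the log2 scale, and ND rat 3 was at -0.20 and -0.34. For Catsper4, ND rat 3 was at -0.30 and DM rat 2 at -0.07. Catsper2, Catsperg and Catsperd were not low with these genes, with values of -0.06 to 0.11 in ND rat 3 and -0.06 to -0.02 in DM rat 2. The 8 spermatid markers did not move as 1 group in these rats. Acrv1, a protein of the developing acrosome, was low in both, at -0.21 in each. Spaca1, another acrosomal gene, was at -0.25 in DM rat 2 and 0.00 in ND rat 3. Odf1, a structural gene of the tail, was at 0.02 and -0.18. The nuclear packaging genes Tnp2, Prm1 and Prm2 were above their means in both rats, Tnp1 was at -0.12 in DM rat 2 and 0.35 in ND rat 3, and the tail gene Akap4 was at 0.01 and 0.05. ND rat 3 also had the lowest relative depth of the 6, at 0.894. The part of germ cell stage or depth in these differences was not tested.

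**Figure D3:**
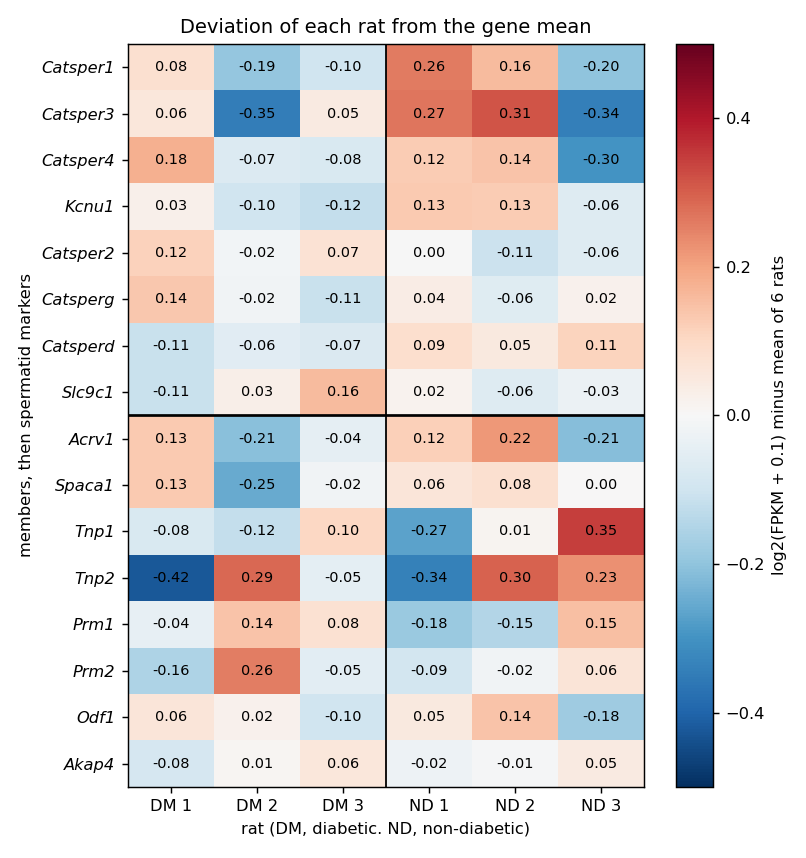
Deviation of each rat from the gene's mean over 6 rats, in log2(FPKM + 0.1), for the 8 tested members (above the line) and 8 spermatid markers (below it). Colour and number give the same value. Catsper3 is at -0.35 in DM rat 2 and -0.34 in ND rat 3, Catsper4 is at -0.30 in ND rat 3, and Catsperd is below 0 in each DM rat and above 0 in each ND rat.

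Leaving out DM rat 2 or ND rat 3 moved the values of Catsper1, Catsper3, Catsper4 and Kcnu1 in opposite directions. This follows from the rats being below the mean of these genes in 1 group each, so the values are given as a description. Catsperg moved slightly up and Slc9c1 slightly down in both cases. Without DM rat 2, the log2 fold change was -0.08 for Catsper1 and -0.03 for Catsper3, and the median of the members was -0.01. Without ND rat 3, it was -0.28 for Catsper1 (adjusted p 0.646, limma), -0.37 for Catsper3 (adjusted p 0.632, limma) and -0.19 for Kcnu1 (adjusted p 0.657, limma), and the median was -0.14. The unadjusted threshold was then passed by these 3 members, all lower, where 4.98% of all genes did so, and Catsperd no longer passed it. The groups did not overlap for 4 members, Catsper1, Catsper3, Catsperd and Kcnu1, where 15.8% of all genes did so in the lower direction. None of the members had an adjusted p below 0.05 in these or any other alternatives, and the lowest adjusted p over all members and alternatives was 0.46.

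The members' proportions within a rat were compared over 12 quantities formed after the levels had been seen, namely the summed level, the share of each pore gene and 7 ratios. The groups did not overlap for 4 of them. These are not separate results, since each contains Catsper1 or Catsperd, and the groups of Catsperd alone already did not overlap. How often such quantities separate for other genes was not computed. Catsper1 made up 9.94, 9.71 and 9.24% of the pore gene sum in DM rats and 11.1, 10.6 and 10.0% in ND rats. The ratio of Catsper4 to Catsper1 was 1.37, 1.39 and 1.30 in DM rats and 1.17, 1.27 and 1.20 in ND rats. The remaining pair divided a member by Catsperd, and was higher in DM rats, with the ratio of Catsper2 to Catsperd at 2.72 ± 0.174 (SD, n = 3) and 2.24 ± 0.0714. The ratio of Catsperg to Catsperd was 6.77, 5.85 and 5.54 in DM rats and 5.50, 5.28 and 5.36 in ND rats, a narrow separation. Each of the 4 had an exact two-sided permutation p of 0.1, the smallest possible, and 0.3 after adjustment over the 12.

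Among the ion channels and transporters that act beside CatSper, Kcnu1 (ENSRNOG00000014741) was at 33.1, 30.3 and 30.0 FPKM in DM rats and 35.6, 35.6 and 31.1 FPKM in ND rats, and DM rat 1 lay inside the ND range. Its log2 fold change was -0.13 (SE 0.08, 95% interval -0.31 to 0.06, adjusted p 0.801, limma). Slc9c1 (ENSRNOG00000022007) was at 72.2, 79.5 and 86.9 FPKM in DM rats and 79.0, 74.6 and 76.4 FPKM in ND rats, with the DM rats on both sides of the ND rats. Its log2 fold change was 0.05 (95% interval -0.13 to 0.23, adjusted p 0.934, limma). Hvcn1 (ENSRNOG00000001270) was at 0.440, 0.442 and 0.146 FPKM in DM rats and 0.356, 0.404 and 0.128 FPKM in ND rats. This is below the filter, and rat 3 of each group was the lowest. Analysed without the filter, Hvcn1 had a log2 fold change of 0.15 (adjusted p 0.965, limma).

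Of 30 further genes of sperm ion transport, 26 had a row and 23 passed the filter. None of the 23 met the criterion or had an adjusted p below 0.05. The unadjusted threshold was passed by 1, higher in DM rats (2.47% of all genes), and by none in the lower direction (4.99%). The median log2 fold change of the 23 was -0.03, beside -0.02 for all genes tested, with 7 above 0 and 16 below. The listed genes without a row were Catspere, Catspere1, Catspere2 and Tmem249, and their levels were not analysed. None of the other CatSper complex genes with a row passed a threshold. Catsperz, listed as Tex40, had a log2 fold change of 0.11, and Efcab9, whose calcium-binding product pairs with the Catsperz protein, one of -0.03. C2cd6, listed as Als2cr11, was at -0.04, and Slco6c1, a transporter-like component, at -0.05. Tmem262 had the lowest value, -0.39 (95% interval -0.92 to 0.14, adjusted p 0.787, limma), at 9.02 ± 2.61 FPKM (SD, n = 3) in DM rats and 11.7 ± 2.33 FPKM in ND rats, and DM rat 1 lay inside the ND range of 9.08 to 13.5 FPKM. Lrrc52, the auxiliary subunit of the Kcnu1 channel, was at -0.08, and Adcy10, the bicarbonate-activated adenylyl cyclase of sperm, also at -0.08.

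The gene past the unadjusted threshold was Slc9b2, a sodium-proton exchanger gene. It was at 3.91, 4.42 and 3.93 FPKM in DM rats and 3.28, 3.46 and 3.21 FPKM in ND rats, and every DM rat lay above every ND rat. Its log2 fold change was 0.29 (SE 0.11, 95% interval 0.03 to 0.55, adjusted p 0.642, limma). Slc9b2 no longer passed the unadjusted threshold with the replicate number as a block, or when DM rat 1, DM rat 2, ND rat 1 or ND rat 3 was left out. Of the 23 genes, 2 had all DM rats above all ND rats (4.56% over all genes) and 1 had them all below (8.42%). The other higher gene was Car4, a carbonic anhydrase that acts on bicarbonate, at 0.917 to 1.11 FPKM in DM rats and 0.557 to 0.902 FPKM in ND rats (log2 fold change 0.38, adjusted p 0.824, limma). The lower gene was Cftr, a chloride and bicarbonate channel, at 17.3, 16.4 and 18.9 FPKM in DM rats and 19.0, 19.3 and 19.7 FPKM in ND rats (log2 fold change -0.14, adjusted p 0.744, limma).

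The genes whose profile over the 6 rats lay closest to the mean profile of the tested members were Osbp, Slco6b1, Zfp639, Ppil6 and LOC499643, with a root mean square difference of 0.01 to 0.02 on the log2 scale, out of 20330 genes compared. Their log2 fold changes were -0.06 to -0.03. The mean profile had an SD over the rats of 0.09 on the log2 scale, and a gene that varies little is close to such a profile.

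The cell types that express the tested members were compared through marker genes. Spermatid markers had a median log2 fold change of -0.04, with 0 of 8 past the unadjusted threshold, and spermatocyte markers one of -0.01, with 0 of 7. The testis label was met by both germ cell lists, and 4 epididymis markers summed to at most 0.375 FPKM in any rat. Outside the germ cells, all 5 Leydig cell markers were lower in DM rats at an unadjusted p below 0.05 (limma), against 4.99% of all genes. The median of their log2 fold changes was -1.24. Their summed level was 26.8 to 55.4 FPKM in DM rats and 81.6 to 115.3 FPKM in ND rats. Of these, Cyp17a1, an enzyme of androgen synthesis, had an adjusted p of 0.0415 (limma). Leukocyte markers were lower as well, in 4 of 5 at an unadjusted p below 0.05, with summed levels of 7.09 to 9.05 FPKM against 12.2 to 16.7 FPKM. The part of these differences in the members' values was not tested.

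**Figure D4:**
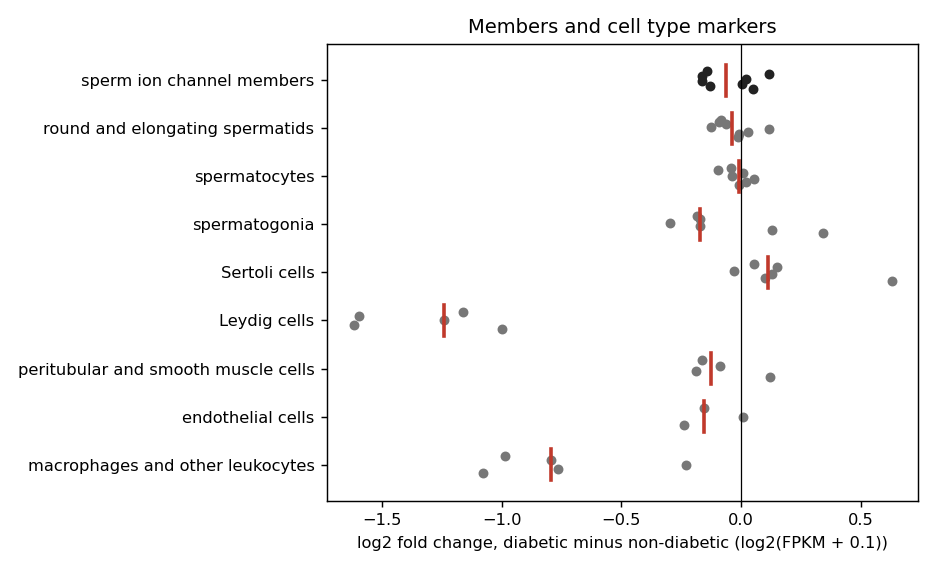
Log2 fold change (DM minus ND, log2(FPKM + 0.1)) of each tested gene (points) in the member list and in lists of testis cell type markers, with the median of each list as a red line. The members are at a median of -0.06, beside -0.02 for all genes tested (not drawn). Spermatid markers are at -0.04, spermatocyte markers at -0.01, peritubular markers at -0.12 and Leydig cell markers at -1.24.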

How the data were processed

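RNA of whole testis was sequenced in paired ends from 3 DM and 3 ND rats. The study calls this mRNA sequencing, and the sample titles name circular, long non-coding and messenger RNA. Whether the gene levels include RNA other than messenger RNA was not tested. The authors checked reads with FastQC, compared them with ribosomal sequences using BWA, aligned with STAR and quantified genes with StringTie. The versions and the genome build are not given in the sources used here. The deposited values are FPKM per gene and rat, already normalized for gene length and mapped reads, so no count model was used and read depth is not known. For each pair of rats, the commonest ratio between their values of low genes was taken, shared by 32 to 57 genes. These ratios gave a relative depth of 0.966 to 1.09 in DM and 0.894 to 1.02 in ND rats, lowest in ND rat 3. The FPKM summed to 453304 to 478211 per rat, and rats correlated at 0.957 to 0.966 between groups and 0.958 to 0.965 within them.

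Values were transformed as log2(FPKM + 0.1), genes with a mean under 0.5 FPKM were left out, and groups were compared with limma 3.58.1 in R 4.3.3 (empirical Bayes with a trend on the mean), with Benjamini-Hochberg adjustment over all genes. Single values were compared with exact two-sided permutation tests (scipy 1.17.1). The fit was tested on simulated data. The members and all gene lists were chosen with earlier results of these data known. Named with values were the members, the CatSper complex genes, other listed genes past an unadjusted p of 0.05 or with groups that did not overlap, and the 5 genes nearest the members' mean profile. Markers and the genes Lrrc52 and Adcy10 are given as context. Promoters were read from RefSeq (GRCr8). Reads of near-identical gene copies may have been shared between genes. The other marker lists gave a median log2 fold change of -0.17 for spermatogonia, 0.11 for Sertoli cells, -0.12 for peritubular cells and -0.15 for endothelial cells. Alternatives were other pseudocounts, filters, scalings and limma settings, protein-coding genes alone, the replicate number as a block, and each rat left out.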

Additional observations from a re-analysis of the deposited data

How the results depend on the processing

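Other filters, other limma settings, protein-coding genes alone and the replicate block leave a log2 fold change as it was. Agreement under them was fixed in advance. Over 16 alternatives, these included, 123 of 128 single-gene values of the 8 tested members kept their direction. The reversed ones, all with 1 rat left out, were Catsper4 without DM rat 1 or ND rat 3 (range -0.1237 to 0.0977 over the rats left out), Slc9c1 without DM rat 3 (-0.0176 to 0.1163) and Catsperg without DM rat 1 or ND rat 2 (-0.0649 to 0.0599). No alternative brought a member past the criterion or to an adjusted p below 0.05. The count of members with an unadjusted p below 0.05, 1 as reported, was 0 with limma's prior variance not following the mean and 0 to 3 with 1 rat left out, 0 without DM rat 1 or ND rat 1 and 3 without ND rat 3. The count of members whose groups did not overlap, 1 as reported, was 2 under median-ratio scaling and 1 to 4 with 1 rat left out, highest without ND rat 3. These overlap counts and the count for the further ion transport genes under the alternatives were added after seeing the data. The latter, 1 as reported, was 0 to 2 with 1 rat left out.

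Both groups use replicate numbers 1 to 3, for different rats, so the main fit did not take the numbers as pairs. Deviations of same-numbered rats correlated at 0.106, 0.0153 and 0.0979, and 4 of 6 rats correlated best with their own number. These values do not settle whether same-numbered rats shared a step of handling, which the labels do not state and which was not tested. With the replicate number as a block, 1 member had an unadjusted p below 0.05, as without it, and the count for the further ion transport genes moved from 1 to 0. The cause of these moves was not tested. With 3 rats a group, the intervals of the pore genes still allow differences such as -0.61 for Catsper3, and 3 against 3 cannot reach an exact p below 0.1. The FPKM table gives no read counts, so no counting error can be stated.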
